A study of Mus musculus with 20 samples.

Results

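Cytochrome P450 genes of families 1 to 4 were examined in the cecum of mice fed raw potato starch (RPS), an uncooked starch of which a large share escapes digestion in the small intestine. The members were the protein-coding genes whose GENCODE mouse symbol is Cyp, a digit from 1 to 4, a letter, and a number, and 55 of the 19887 genes in the count table met this rule. Of these, 2 belonged to family 1, 33 to family 2, 5 to family 3, and 15 to family 4. The annotation holds 76 such symbols, and those outside the table were not analysed here. RNA was sequenced from the cecum of 20 C57BL/6 mice that were 3 weeks old at the start. All had eaten the Total Western Diet (TWD), a rodent diet modelled on American nutrient intakes, for 6 weeks, and then received the TWD with 0, 2, 5, or 10% RPS for 3 weeks (5 mice per diet). The mice of each diet are numbered 1 to 5. Total counts per mouse were 14967798 to 42687283. In bulk tissue of this kind, fewer cells of a type and less RNA per cell cannot be told apart.

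P450s are heme enzymes of the endoplasmic reticulum that insert an oxygen atom into lipophilic substrates with electrons from NADPH cytochrome P450 reductase (Por). Families 1 to 3 oxidize drugs, dietary chemicals, and steroids, and several of their members also convert polyunsaturated fatty acids into epoxides and alcohols. Family 4 consists mainly of fatty acid and eicosanoid hydroxylases, which act at or near the methyl end of the chain. The gut epithelium is a major P450 site outside the liver, and a number of these genes are transcribed under the xenobiotic and lipid receptors Ahr, Nr1i2 (PXR), Nr1i3 (CAR), and Ppara.

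The P450 genes lie in clusters of close copies, so the sequence decides how well the reads of neighbours can be told apart. The Cyp2d cluster, which held most of the calls below, lies on chromosome 15. An 80 base stretch of a coding exon is shown for 4 of its members (GRCm39, each read on the strand of its gene), because 73 of the 80 bases are the same in all 4. Capitals mark the bases identical in the 4 genes. The stretch of Cyp2d9 is chr15:82338511-82338590 (plus strand), that of Cyp2d10 is chr15:82289488-82289567 (minus), that of Cyp2d12 is chr15:82441106-82441185 (plus), and that of Cyp2d34 is chr15:82502512-82502591 (minus).
Cyp2d9: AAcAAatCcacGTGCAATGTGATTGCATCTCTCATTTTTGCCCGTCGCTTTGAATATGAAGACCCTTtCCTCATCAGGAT
Cyp2d10: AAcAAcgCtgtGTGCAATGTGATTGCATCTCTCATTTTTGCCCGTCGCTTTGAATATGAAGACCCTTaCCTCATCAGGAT
Cyp2d12: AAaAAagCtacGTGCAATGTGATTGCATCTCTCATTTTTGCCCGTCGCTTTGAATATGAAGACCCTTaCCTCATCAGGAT
Cyp2d34: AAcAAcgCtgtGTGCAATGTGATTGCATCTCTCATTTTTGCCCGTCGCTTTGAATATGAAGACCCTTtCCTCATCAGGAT
A read inside the long capital run could come from any of the 4 genes. Over the annotated reference transcript of each gene, 40.3% of the 50 base windows of Cyp2d10, 29.0% of those of Cyp2d9, 17.7% of those of Cyp2d12, and 13.7% of those of Cyp2d34 also occurred in a transcript of another gene. The nearest relative by coding sequence was Cyp2d11 for Cyp2d9 (93.3% identity), Cyp2d10 (94.7%), and Cyp2d34 (91.5%). Among other tested members the share of such windows ranged widely. It was 54.8% for Cyp2c69, 45.5% for Cyp4a32, 44.0% for Cyp2c68, and 37.0% for Cyp4a10, whose levels are uncertain for the same reason. It was 0.5% for Cyp2c55, 0.4% for Cyp2j6, 1.0% for Cyp4f14, and 1.8% for Cyp4f15, and it exceeded 10% in 14 of the 39 members that could be tested. Reads that map to several genes may have been divided, assigned at random, or dropped, and which of these was done is not given in the sources used here. The levels of Cyp2d9, Cyp2d10, and Cyp2d12 are therefore less certain than those of Cyp2c55 or Cyp4f15.

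The promoters of these members are shown from 180 bases before to 30 bases after the annotated start of the reference transcript (GRCm39), because these 4 Cyp2d genes also share sequence there. In the Cyp2d promoters capitals mark runs of at least 12 bases common to all 4, and in that of Cyp2c55 they mark the TATAA motif on both strands. The windows are chr15:82336355-82336564 for Cyp2d9 (plus), chr15:82291375-82291584 for Cyp2d10 (minus), chr15:82439066-82439275 for Cyp2d12 (plus), chr15:82505117-82505326 for Cyp2d34 (minus), and chr19:38995282-38995491 for Cyp2c55 (plus).
Cyp2d9: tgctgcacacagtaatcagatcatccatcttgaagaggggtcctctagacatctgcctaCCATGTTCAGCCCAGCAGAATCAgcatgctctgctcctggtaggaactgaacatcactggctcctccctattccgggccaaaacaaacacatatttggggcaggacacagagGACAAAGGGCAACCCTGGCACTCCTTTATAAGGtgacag
Cyp2d10: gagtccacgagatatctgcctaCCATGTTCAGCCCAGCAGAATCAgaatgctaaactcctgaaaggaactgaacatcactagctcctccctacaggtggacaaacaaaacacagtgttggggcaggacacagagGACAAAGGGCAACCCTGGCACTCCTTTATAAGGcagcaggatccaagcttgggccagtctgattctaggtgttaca
Cyp2d12: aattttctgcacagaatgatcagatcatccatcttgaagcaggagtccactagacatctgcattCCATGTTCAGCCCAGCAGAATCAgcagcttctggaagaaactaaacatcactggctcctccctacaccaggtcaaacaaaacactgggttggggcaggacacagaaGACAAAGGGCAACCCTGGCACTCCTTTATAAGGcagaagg
Cyp2d34: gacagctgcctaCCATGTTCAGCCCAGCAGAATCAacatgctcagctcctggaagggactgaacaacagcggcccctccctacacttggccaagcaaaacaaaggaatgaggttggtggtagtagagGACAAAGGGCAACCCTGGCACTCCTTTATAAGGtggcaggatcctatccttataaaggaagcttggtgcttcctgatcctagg
Cyp2c55: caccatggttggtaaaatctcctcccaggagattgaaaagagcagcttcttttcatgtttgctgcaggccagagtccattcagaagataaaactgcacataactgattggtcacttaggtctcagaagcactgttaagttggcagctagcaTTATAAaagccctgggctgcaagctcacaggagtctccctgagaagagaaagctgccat
The longest common run of the 4 Cyp2d promoters had 33 bases and ended in a TATAA motif followed by GG. It lay 46 to 14 bases before the annotated start in Cyp2d10 and 53 to 21 bases before it in Cyp2d34, and it spanned the annotated start in Cyp2d9 and Cyp2d12. Among the promoters of 17681 protein-coding genes (250 bases before to 50 after the start), this run was found in 4, which were Cyp2d9, Cyp2d10, Cyp2d12, and Cyp2d34. A TATAA motif on either strand was present in 29 of the 55 member promoters and in 18.8% of all promoters. GCGTG, the core letters of the Ahr response element, was present on either strand in 14 of 55 and in 42.5% of all. The Cyp1a1 promoter held 4 copies of GCGTG, the most of any member. Direct repeats of AGGTCA spaced by 1 base, as bound by Ppara and its partner, were in 0 of 55 member windows and 0.0396% of all, and those spaced by 3 or 4 bases were in 0 of either. These matches describe the letters of the windows only, and no match says only that these letters were not in this window.

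Cyp2c55 dominated the P450 RNA of the cecum. It had a mean level of 1704 CPM per kb of exon (CPM are counts scaled to a common library size with TMM factors, here divided by gene length) over the 20 mice, which placed it 17th of the tested genes. Cyp2c55 oxidizes arachidonic acid and is a known P450 of the large intestine. It made up 0.516% of all counts with 0% RPS and 0.346% with 10% RPS. Its share of the summed P450 CPM was 68.9 ± 1.76% (SD, n = 5) with 0% RPS and 60.5 ± 3.00% with 10% RPS. Per kb, Cyp2c65 followed with 240.5, Cyp3a13 with 134, Cyp2d26 with 64.6, Cyp4f40 with 59.0, Cyp2d34 with 54.0, Cyp2j6 with 45.5, and Cyp4f14 with 36.3 CPM per kb. Cyp4b1 (18.6), Cyp2s1 (15.8), Cyp2w1 (10.7), and Cyp4f16 (10.2) were also above 10 CPM per kb.

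Below 10 CPM per kb lay the other 27 of the 39 tested members. The floor of detection was 3 counts, or 0.070 to 0.19 CPM depending on the library. The 16 members below the filter on low counts had at most 18 counts in any mouse. They included Cyp2b10 and Cyp3a11, the classic targets of Nr1i3 and Nr1i2, with at most 3 counts each, and also Cyp2a5, Cyp2a12, Cyp2c29, Cyp2c40, Cyp2c67, Cyp2c70, Cyp2d11, Cyp2d40, Cyp2j8, Cyp3a25, Cyp3a44, Cyp3a57, Cyp4a31, and Cyp4f37. Of 12 hepatocyte markers in the table, 7 passed the filter. The secreted liver proteins Alb, Ahsg, Hpx, Serpina1a, and Serpina1c did not pass, with at most 30 counts for Alb and 15 for the others in any mouse. Apob (213 CPM on average), Ttr (31.9), Cps1 (9.43), and Ambp (5.50) were well above the floor.

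**Figure D1:**
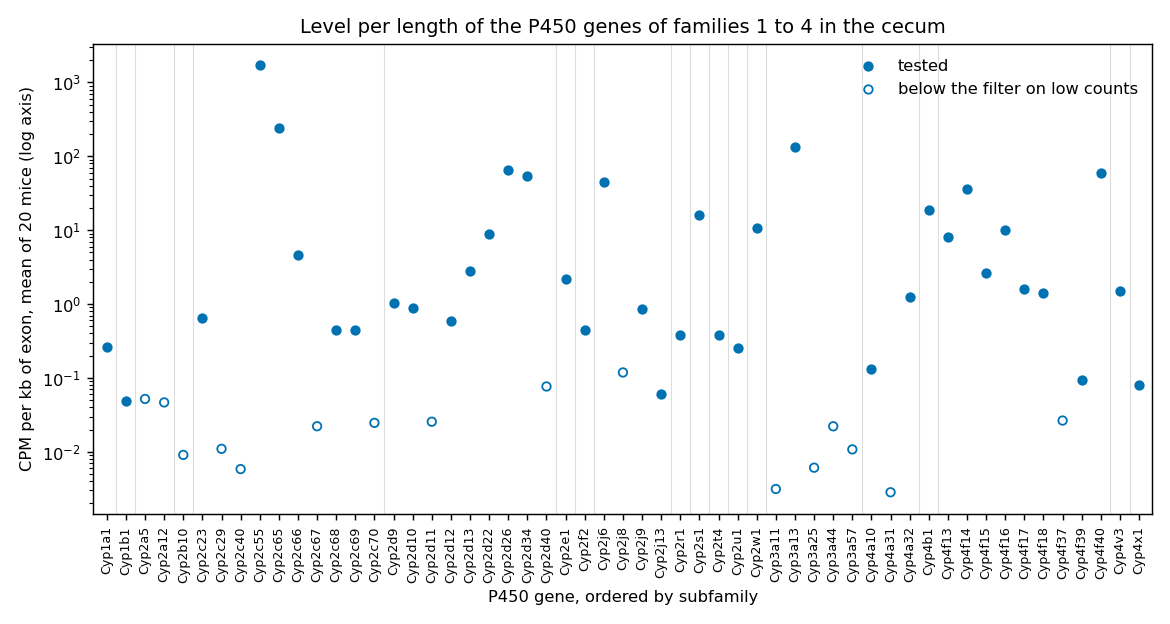
Level per length of the 55 P450 genes of families 1 to 4. The vertical axis is CPM per kb of exon on a log axis (mean of 20 mice), genes are ordered by subfamily, filled circles were tested, and open circles were below the filter on low counts. Cyp2c55 stands highest at 1704 CPM per kb.

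In the cecum, 4 P450 genes were upregulated and 1 was downregulated by 10% RPS compared with 0% RPS, by edgeR's quasi-likelihood test with Benjamini-Hochberg adjustment over all 15348 tested genes (adjusted p within 0.05 and a fold change of at least 1.5). The upregulated genes were Cyp4f15, Cyp2d9, Cyp2d12, and Cyp2d34, and the downregulated gene was Cyp2c55. These were 5 of 39 members, where 1.04% of all tested genes passed the same threshold. At an unadjusted p under 0.05 there were 15 of 39 members, 7 higher and 8 lower, beside 19.5% of all genes. In 9 of 39 members the values with 10% and 0% RPS did not overlap, beside 4.88% of all genes. The members leaned to neither side, with a median log2 fold change of -0.050 against 0.0041 over all tested genes, but their median absolute log2 fold change was 0.38 against 0.16. The summed level of all 55 members was 7700 ± 349 CPM (SD, n = 5) with 0% RPS and 5537 ± 668 CPM with 10% RPS. Without Cyp2c55 the sums were 2392 ± 156 and 2179 ± 195 CPM.

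The count of 5 depended on single mice. It was 1 without mouse 3 or 5 on 0% RPS or mouse 1, 2, or 3 on 10% RPS, and on leaving out mouse 4 or mouse 1 on 0% RPS it was 2 and 3. Cyp2c55 was the gene that remained in each of these fits. Calls over all tested genes fell in the same fits, from 1.04% to between 0.0907 and 0.635%. DESeq2's Wald test called 7 of the 36 members to which it gave an adjusted p, the same 5 with Cyp2c23 and Cyp2d10, beside 2.46% of all genes with an adjusted p by that tool.

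**Figure D2:**
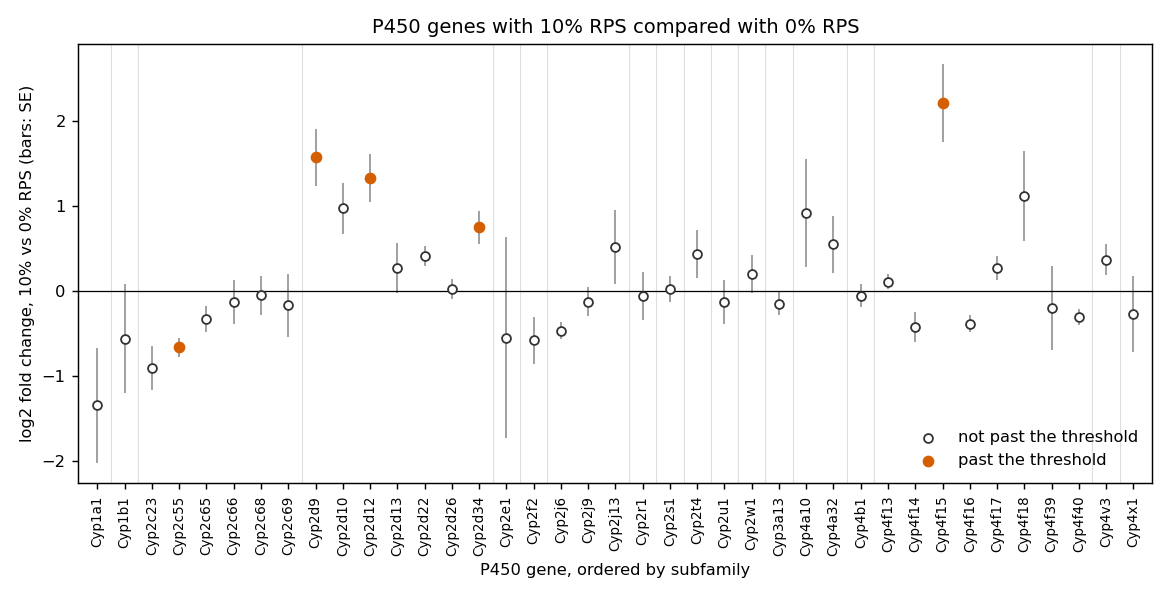
log2 fold change of the 39 tested P450 genes with 10% compared with 0% RPS (vertical axis, bars give the SE), ordered by subfamily. Filled circles passed the threshold of an adjusted p of at most 0.05 and a fold change of at least 1.5, and they are Cyp2c55 below 0 and Cyp2d9, Cyp2d12, Cyp2d34, and Cyp4f15 above 0.

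Cyp2c genes, several of which encode arachidonic acid epoxygenases, had lower estimates with 10% RPS in 6 of 6 tested members. Of the 6, 1 passed the threshold, beside 1.04% of all tested genes. These directions were kept with DESeq2's size factors, but those of the 3 least changed members were not stable. Cyp2c66 and Cyp2c68 turned higher with smooth muscle markers as a covariate. On leaving out single mice, Cyp2c68 turned higher without mouse 2 on 0% or on 10% RPS, Cyp2c66 without mouse 4 on 0% RPS, and Cyp2c69 without mouse 5 on 0% or mouse 1 on 10% RPS. Cyp2c55 (ENSMUSG00000025002, chr19:38995462-39031144, plus strand) had 5425, 4834, 5631, 5316, and 5334 CPM in the mice fed 0% RPS. With 10% RPS the values were 2803, 3542, 3206, 4191, and 3049 CPM. The highest mouse on 10% RPS was below the lowest on 0% RPS. The means were 5308 ± 293 CPM (SD, n = 5) and 3358 ± 538 CPM, with 4261 ± 502 CPM on 2% RPS and 4063 ± 328 CPM on 5% RPS between them. The mice had 4249, 3943, 3957, 5132, and 4026 CPM with 2% RPS and 4556, 3695, 3920, 3948, and 4196 CPM with 5% RPS, so that mouse 4 on 2% RPS was the 1 of these 10 within the range of 0% RPS. The log2 fold change of Cyp2c55 was -0.66 (SE 0.11, adjusted p = 0.00818 by edgeR). The call held in 10 of 10 fits that each left out 1 mouse of these diets (adjusted p = 0.00158 to 0.0396). It was lost with smooth muscle marker level as a covariate (log2 fold change -0.56, adjusted p = 0.150 by edgeR) and in edgeR's glmTreat test against a 1.5-fold change (adjusted p = 1). In both of these fits 0% of all tested genes passed.

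Cyp2c23, an arachidonic acid epoxygenase on another part of chromosome 19, had 1.85, 2.27, 2.70, 2.38, and 2.38 CPM with 0% RPS and 1.43, 1.60, 0.695, 1.60, and 0.863 CPM with 10% RPS. The diets did not overlap, yet the log2 fold change of -0.90 (SE 0.26) had an adjusted p of 0.0686 and missed the threshold. Cyp2c65, the second most abundant member per kb, had 520.1, 444, 593, 606, and 469.7 CPM with 0% RPS and 417, 566, 359, 398, and 359 CPM with 10% RPS. Its diets overlapped through mouse 2 on 10% RPS (log2 fold change -0.33, SE 0.15, adjusted p = 0.240 by edgeR). Cyp2c66, Cyp2c68, and Cyp2c69 had log2 fold changes of -0.12, -0.048, and -0.17, within 1 SE of 0, and 44.0% and 54.8% of the windows of Cyp2c68 and Cyp2c69 occur in other genes. Cyp2c65 and Cyp2c66 are 96.3% identical in coding sequence, and Cyp2c66 had about 1.79% of the CPM of Cyp2c65 with 0% RPS. Whether reads of Cyp2c65 were counted on Cyp2c66 was not tested.

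Cyp2d genes went the other way. Their estimates were higher in 7 of 7 tested members (6 of 7 without mouse 4 on 0% RPS or mouse 5 on 10% RPS, where Cyp2d26 turned lower). Of the 7, 5 had an unadjusted p under 0.05, beside 19.5% of all tested genes. Cyp2d9, Cyp2d12, and Cyp2d34 passed the threshold, beside 1.04% of all tested genes. The 3 genes differ in abundance, with 54.0 CPM per kb for Cyp2d34, 1.04 for Cyp2d9, and 0.591 for Cyp2d12 over all mice. Cyp2d34 (ENSMUSG00000094559, chr15:82500166-82505172, minus strand) had 126, 144, 140.3, 74.5, and 91.7 CPM with 0% RPS and 145, 239, 185, 187, and 215 CPM with 10% RPS. The lowest mouse on 10% RPS was just above the highest on 0% RPS. With 2% RPS there were 156, 137, 176, 210.2, and 147 CPM, and with 5% RPS 166, 141, 125, 115, and 214 CPM. The log2 fold change of Cyp2d34 was 0.75 (SE 0.19, adjusted p = 0.0486 by edgeR).

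Cyp2d9 (ENSMUSG00000068086, chr15:82317638-82341046, plus strand), known in the mouse liver as a male-specific steroid hydroxylase, was far less abundant. Its levels were 1.27, 2.31, 1.84, 1.24, and 0.975 CPM with 0% RPS and 2.96, 9.53, 3.63, 3.49, and 2.93 CPM with 10% RPS. The diets did not overlap, and mouse 2 on 10% RPS stood above the other 4. With 2% RPS there were 2.00, 2.05, 3.38, 3.31, and 1.75 CPM, and with 5% RPS 4.14, 2.25, 2.41, 3.08, and 4.48 CPM. The log2 fold change of Cyp2d9 was 1.58 (SE 0.34, adjusted p = 0.0271 by edgeR). Cyp2d12 (ENSMUSG00000096852, chr15:82439246-82444604, plus strand) had 1.85, 1.35, 1.46, 1.04, and 0.975 CPM with 0% RPS and 3.35, 5.19, 2.53, 2.36, and 3.41 CPM with 10% RPS, again without overlap and with mouse 2 on 10% RPS highest. With 2% RPS there were 1.41, 1.29, 2.67, 2.44, and 1.93 CPM, and with 5% RPS 2.52, 1.78, 2.98, 1.79, and 4.005 CPM. The log2 fold change of Cyp2d12 was 1.34 (SE 0.28, adjusted p = 0.0266 by edgeR).

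Cyp2d10, which shares the promoter run, had 1.82, 4.98, 4.58, 1.91, and 2.70 CPM with 0% RPS and 5.54, 10.1, 5.72, 4.90, and 5.03 CPM with 10% RPS. A pair of mice overlapped, since mouse 2 on 0% RPS was at 4.98 and mouse 4 on 10% RPS at 4.90 CPM (log2 fold change 0.98, SE 0.30, adjusted p = 0.0825 by edgeR). Cyp2d22, the mouse Cyp2d gene often set beside the human drug-metabolizing CYP2D enzyme, had 39.5, 37.1, 30.1, 34.1, and 39.0 CPM with 0% RPS and 45.0, 46.9, 56.2, 41.3, and 50.5 CPM with 10% RPS. These did not overlap, but the log2 fold change of 0.42 (SE 0.12) had an adjusted p of 0.0656. Cyp2d26, the Cyp2d gene with the highest level per kb, was at 129 ± 22.2 CPM (SD, n = 5) and 132 ± 11.6 CPM with a log2 fold change of 0.030 (SE 0.12). Its mice had 126, 124, 141, 97.6, and 157 CPM with 0% RPS and 124, 127, 120.1, 142, and 147 CPM with 10% RPS, which overlap throughout. Cyp2d13 had a log2 fold change of 0.27 (SE 0.29).

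Since Cyp2d9, Cyp2d10, and Cyp2d12 share windows with the more abundant Cyp2d34, their levels were set against it in each mouse. Cyp2d9 was at 1.01 to 1.67% of the Cyp2d34 CPM with 0% RPS and 1.36 to 3.99% with 10% RPS. For Cyp2d12 the ranges were 0.937 to 1.48% and 1.26 to 2.31%. For Cyp2d10 they were 1.45 to 3.44% and 2.34 to 4.22%. All these ranges overlap between the diets, and whether reads of Cyp2d34 were counted on its neighbours was not tested.

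The Cyp2d calls were lost on leaving out many of the single mice. In the fits that lost them, 0.0907 to 1% of all tested genes were called, against 1.04% with all mice. Cyp2d9 was called in 3 of 10 fits that each left out a mouse of these diets, and missed without mouse 1, 3, 4, or 5 on 0% RPS or mouse 1, 2, or 3 on 10% RPS (adjusted p = 0.0537 to 0.0816). Cyp2d12 was called in 4 of 10 and missed without mouse 3, 4, or 5 on 0% RPS or mouse 1, 2, or 3 on 10% RPS (adjusted p = 0.0563 to 0.0760). Cyp2d34 was called in 2 of 10 and, among these, kept its call without mouse 2 on 0% RPS or mouse 4 on 10% RPS. It was also lost without mouse 1, 2, or 5 on 2% RPS or mouse 1, 2, or 3 on 5% RPS, and its adjusted p in all 14 fits that lost it was 0.0506 to 0.108. The log2 fold changes stayed positive, at 1.10 to 1.77 for Cyp2d9, 1.12 to 1.49 for Cyp2d12, and 0.63 to 0.85 for Cyp2d34 in the 10 fits.

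**Figure D3:**
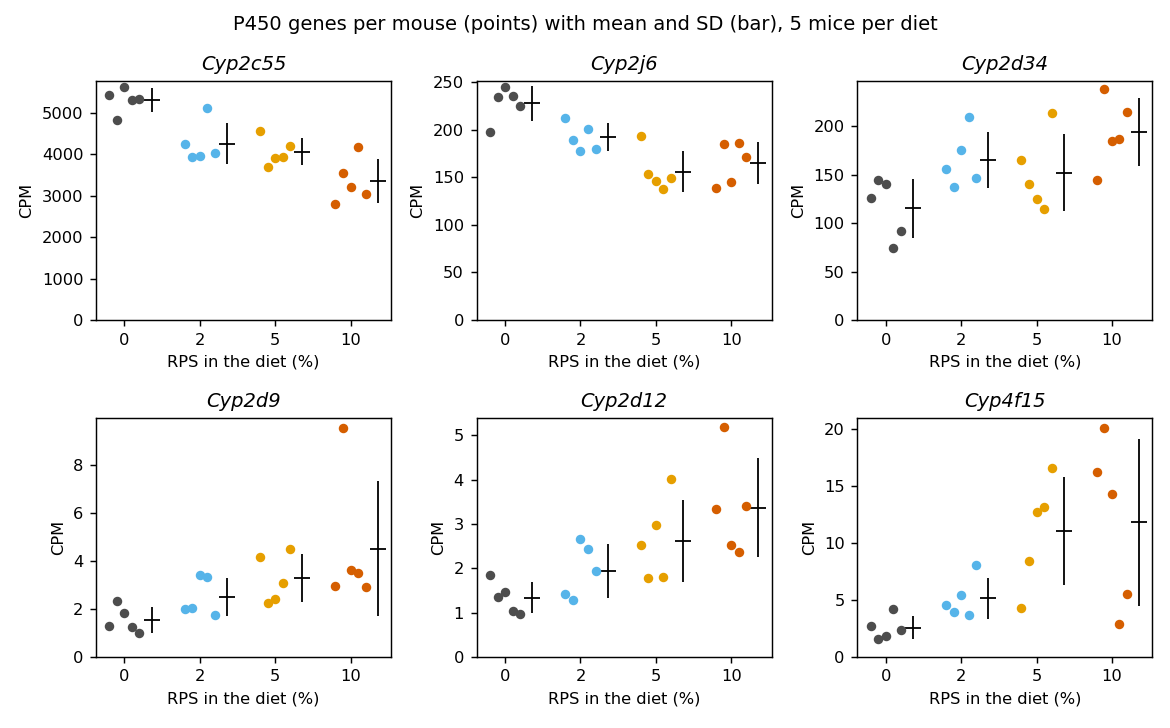
CPM (vertical axes, from 0) of 6 P450 genes in each mouse by the percentage of RPS in the diet, with 5 points per diet and a bar for the mean and SD. Cyp2c55 in the mice on 10% RPS lies between 2803 and 4191 CPM, below every mouse on 0% RPS, while Cyp2d9 and Cyp2d12 lie above.

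Cyp2j6, an intestinal member of a subfamily that epoxidizes arachidonic acid, had a small and even decrease. Its levels were 198, 234, 245, 236, and 225 CPM with 0% RPS and 139, 185, 144, 186, and 171 CPM with 10% RPS, without overlap. The log2 fold change was -0.46 (SE 0.10, adjusted p = 0.0275 by edgeR), so that it passed the adjusted p but not the fold change of 1.5. With 5% RPS it had 193, 153, 146, 137, and 149 CPM, and it was the 1 member with an adjusted p within 0.05 on that diet (log2 fold change -0.54, SE 0.10, adjusted p = 0.0377 by edgeR). Cyp2j9 and Cyp2j13 had log2 fold changes of -0.12 and 0.52 with 10% RPS, with SE 0.17 and 0.44.

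Cyp4f genes, many of which inactivate leukotriene B4 and related eicosanoids by hydroxylation, were split. Estimates were higher in 4 and lower in 4 of the 8 tested members, and Cyp4f15 passed the threshold, beside 1.04% of all tested genes. Cyp4f15 (ENSMUSG00000073424, chr17:32904421-32922640, plus strand) had 2.70, 1.59, 1.84, 4.16, and 2.38 CPM with 0% RPS. The mice fed 10% RPS had 16.3, 20.1, 14.3, 2.87, and 5.48 CPM. Mouse 4 on 10% RPS lay inside the range of 0% RPS, and the others lay above it. The log2 fold change of Cyp4f15 was 2.22 (SE 0.46, adjusted p = 0.0267 by edgeR). Its mean rose over the doses from 2.54 ± 1.01 CPM (SD, n = 5) to 5.12 ± 1.77 CPM with 2% RPS, 11.0 ± 4.74 CPM with 5% RPS, and 11.8 ± 7.33 CPM with 10% RPS. The single mice had 4.53, 3.93, 5.45, 3.67, and 8.05 CPM with 2% RPS and 4.30, 8.44, 12.7, 13.1, and 16.6 CPM with 5% RPS, where mouse 1 was lowest. The call held in 5 of 10 fits and was missed without mouse 3 or 5 on 0% RPS or mouse 1, 2, or 3 on 10% RPS (adjusted p = 0.0553 to 0.0819). It was also lost with smooth muscle marker level as a covariate, where the log2 fold change was 0.99 (adjusted p = 0.310 by edgeR). In that fit 0% of all tested genes passed.

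The other tested Cyp4f members on chromosome 17 differed in direction, with lower estimates for Cyp4f14, Cyp4f16, Cyp4f39, and Cyp4f40 and higher ones for Cyp4f13 and Cyp4f17, none past the threshold. Cyp4f39 turned higher without mouse 4 on 0% RPS and with the smooth muscle covariate. Cyp4f40, 81.9% identical to Cyp4f15 in coding sequence, had 164, 180.1, 166, 186, and 189 CPM with 0% RPS and 138, 158, 129, 155, and 134 CPM with 10% RPS. Its diets did not overlap (log2 fold change -0.31, SE 0.094, adjusted p = 0.0845 by edgeR). Cyp4f16 had 78.0, 68.3, 70.3, 83.9, and 77.2 CPM with 0% RPS and 58.2, 64.8, 54.7, 57.8, and 54.8 CPM with 10% RPS, also without overlap. Its log2 fold change of -0.38 (SE 0.10) had an adjusted p of 0.0511 by edgeR. Cyp4f16 thus narrowly missed the adjusted p of the threshold, and its decrease of 1.30-fold was also below the required fold change. Cyp4f14, a leukotriene B4 hydroxylase, had 202, 331, 274, 220.4, and 325 CPM with 0% RPS and 175, 223, 132, 262, and 220.4 CPM with 10% RPS. These overlapped (log2 fold change -0.42, SE 0.18, adjusted p = 0.208 by edgeR). Cyp4f13, Cyp4f17, and Cyp4f39 had log2 fold changes of 0.11, 0.28, and -0.20, none with an unadjusted p under 0.05.

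Cyp4f18, which lies apart on chromosome 8 and is known as the leukotriene B4 hydroxylase of mouse leukocytes, had 2.08, 5.77, 1.54, 1.85, and 1.12 CPM with 0% RPS and 5.37, 1.34, 6.32, 7.44, and 6.38 CPM with 10% RPS. Mouse 2 was the highest on 0% RPS and the lowest on 10% RPS (log2 fold change 1.12, SE 0.53, adjusted p = 0.255 by edgeR). The same mice stood apart in the summed CPM of 9 B and plasma cell markers, where mouse 2 had 507 CPM, the highest on 0% RPS, and mouse 2 had 274 CPM, the lowest on 10% RPS. These markers ranged from 56.3 to 507 CPM with 0% RPS and from 274 to 592 CPM with 10% RPS, and Mzb1 was at 0 in 3 of the 20 mice. Of the 8 tested B and plasma cell markers 8 had higher estimates with 10% RPS (median log2 fold change 1.96), 0 at an unadjusted p under 0.05, and 2 were higher at an unadjusted p under 0.05 in the trend with dose. The part of immune cells in the Cyp4f18 values was not tested.

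Family 1 holds the classic targets of Ahr. Cyp1a1 had 1.66, 2.31, 0.675, 0.101, and 0.545 CPM with 0% RPS and 0.453, 0.155, 0.379, 0.801, and 0.338 CPM with 10% RPS. The first group spanned a wide range that held all 5 mice of the second (log2 fold change -1.34, SE 0.68, adjusted p = 0.282 by edgeR). Cyp1b1 was at 0.284 ± 0.172 CPM (SD, n = 5) and 0.197 ± 0.192 CPM, near the floor of 3 counts in some mice (log2 fold change -0.56, SE 0.64). Its values were 0.521, 0.279, 0.3001, 0.0336, and 0.287 CPM with 0% RPS and 0.139, 0.310, 0.0632, 0.471, and 0 CPM with 10% RPS.

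The single-gene subfamilies of family 2 showed no call. Cyp2e1, the ethanol-oxidizing P450 of liver and fat, had 17.0, 3.42, 4.76, 1.54, and 1.92 CPM with 0% RPS and 0.139, 4.93, 0.727, 13.6, and 0.563 CPM with 10% RPS. The mice of each diet were widely spread. Adipoq, a marker of fat cells, was highest in the same mouse as Cyp2e1 on 0% RPS (mouse 1, 34.6 CPM of Adipoq) and 10% RPS (mouse 4, 27.8 CPM). On 2% RPS Cyp2e1 was highest in mouse 5 and Adipoq in mouse 4, and on 5% RPS they were highest in mice 4 and 3. Cyp2f2, known from the airway, had 1.33, 1.55, 1.24, 1.48, and 2.52 CPM with 0% RPS and 1.19, 1.29, 0.916, 1.32, and 0.750 CPM with 10% RPS, which overlapped (log2 fold change -0.58, SE 0.28, adjusted p = 0.255 by edgeR). Cyp2s1, an epithelial P450 that Ahr can induce, had 51.3, 74.2, 76.1, 68.4, and 104 CPM with 0% RPS and 79.7, 92.4, 67.5, 70.7, and 69.7 CPM with 10% RPS. Its estimate was 0.024 (SE 0.15), and the wider group of 0% RPS enclosed the other.

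Cyp2w1, which is expressed in the fetal gut and in colon tumors, had 13.9, 15.2, 11.9, 11.6, and 14.2 CPM with 0% RPS and 17.9, 8.80, 19.2, 14.1, and 17.2 CPM with 10% RPS (log2 fold change 0.21, SE 0.22). Cyp2r1, a vitamin D hydroxylase, had 2.02, 0.956, 1.39, 1.38, and 0.861 CPM with 0% RPS and 1.57, 1.32, 0.980, 1.32, and 1.16 CPM with 10% RPS (-0.057, SE 0.28, as log2 fold change). Cyp2u1, a hydroxylase of long-chain fatty acids, had 1.11, 1.87, 1.58, 1.48, and 2.41 CPM and 1.36, 1.26, 1.52, 1.65, and 1.99 CPM on the same diets (-0.12, SE 0.26). In these 3 genes the diets overlapped. Cyp2t4 had 0.488, 0.358, 0.413, 0.436, and 0.574 CPM with 0% RPS, 0.730, 0.626, 1.02, 0.643, and 0.815 CPM with 2% RPS, and 0.488, 0.645, 0.885, 0.613, and 0.450 CPM with 10% RPS. The mice fed 2% RPS lay above all mice fed 0% RPS, while those fed 10% RPS overlapped with them (log2 fold change with 10% RPS 0.44, SE 0.28).

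Cyp3a13, the Cyp3a gene of the mouse intestine and the 1 of 5 Cyp3a members above the filter, had 418, 523, 545, 415, and 399.7 CPM with 0% RPS and 415, 422, 354, 476, and 414 CPM with 10% RPS. The diets overlapped, and the log2 fold change was -0.14 with SE 0.14 (adjusted p = 0.608 by edgeR). Among the fatty acid hydroxylases of family 4 outside Cyp4f, Cyp4b1 had 127, 125, 178, 129, and 163 CPM with 0% RPS and 162, 107, 144, 139, and 145 CPM with 10% RPS (log2 fold change -0.050, SE 0.13). Cyp4a32 had 2.12, 1.03, 3.26, 2.28, and 2.84 CPM with 0% RPS and 5.61, 3.72, 3.57, 2.07, and 1.95 CPM with 10% RPS (log2 fold change 0.55, SE 0.33). Both overlapped between the diets. The 2 genes also overlap each other on opposite strands of chromosome 4, and 45.5% of the Cyp4a32 windows occur in other genes, and whether the counting used strand is not given in the sources used here, so that the Cyp4a32 level is uncertain. Cyp4a10, a classic target of Ppara, had at most 16 counts in any mouse (log2 fold change 0.92, SE 0.63).

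Cyp4v3 had 4.62, 5.42, 5.18, 4.06, and 4.93 CPM with 0% RPS and 6.13, 4.91, 7.14, 6.50, and 6.71 CPM with 10% RPS. Mouse 2 on 10% RPS fell inside the range of 0% RPS (log2 fold change 0.37, SE 0.18, adjusted p = 0.268 by edgeR). Cyp4x1 had 0.521, 0.279, 0.638, 0.269, and 0.373 CPM with 0% RPS and 0.453, 0.129, 0.284, 0.565, and 0.338 CPM with 10% RPS, which overlapped (log2 fold change -0.27, SE 0.45).

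The 9 members whose 5 and 5 mice did not overlap were Cyp2c23, Cyp2c55, Cyp2j6, Cyp4f16, and Cyp4f40 among the lower and Cyp2d9, Cyp2d12, Cyp2d22, and Cyp2d34 among the higher genes. After adjustment over all tested genes, 4 of the 9 passed the threshold.

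With less starch, no P450 gene passed the threshold. With 5% RPS there were 0 of 39 by edgeR, beside 0.195% of all tested genes, and 3 of 50 with an adjusted p by DESeq2's Wald test (Cyp2c23, Cyp2d12, and Cyp4f15), beside 1.41% of all such genes. The number with an unadjusted p under 0.05 was 16 of 39, beside 13.3% of all genes. With 2% RPS there were 0 by edgeR, beside 0% of all genes, and 0 by DESeq2, beside 0.027%, and 9 of 39 members had an unadjusted p under 0.05, beside 5.77%. Between 10 and 5% RPS there were 0 by either tool, beside 0% of all genes, and 3 members had an unadjusted p under 0.05, beside 2.79%. These 3 were Cyp1a1, Cyp2c55, and Cyp2f2, all lower with 10% RPS. The count of 0 with 5% RPS became 1 without mouse 1 on 0% RPS, mouse 4 or 5 on 2% RPS, or mouse 2 or 4 on 10% RPS, and 2 without mouse 1 on 5% RPS, beside 0.0324 to 0.739% of all tested genes in these fits.

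The comparisons with 0% RPS share the same 5 control mice, so their values are given side by side and not as separate evidence. The log2 fold changes of Cyp2c55 were -0.32, -0.39, and -0.66 with 2, 5, and 10% RPS. Those of Cyp2d9 were 0.72, 1.11, and 1.58, and those of Cyp2d12 were 0.55, 0.96, and 1.34. Cyp2d34 had 0.52, 0.40, and 0.75, with the middle diet lowest. Cyp4f15 had 1.02, 2.11, and 2.22, most of it reached with 5% RPS. Cyp2c23 and Cyp2j6 were lowest with 5% RPS, at -0.92 and -0.54.

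**Figure D4:**
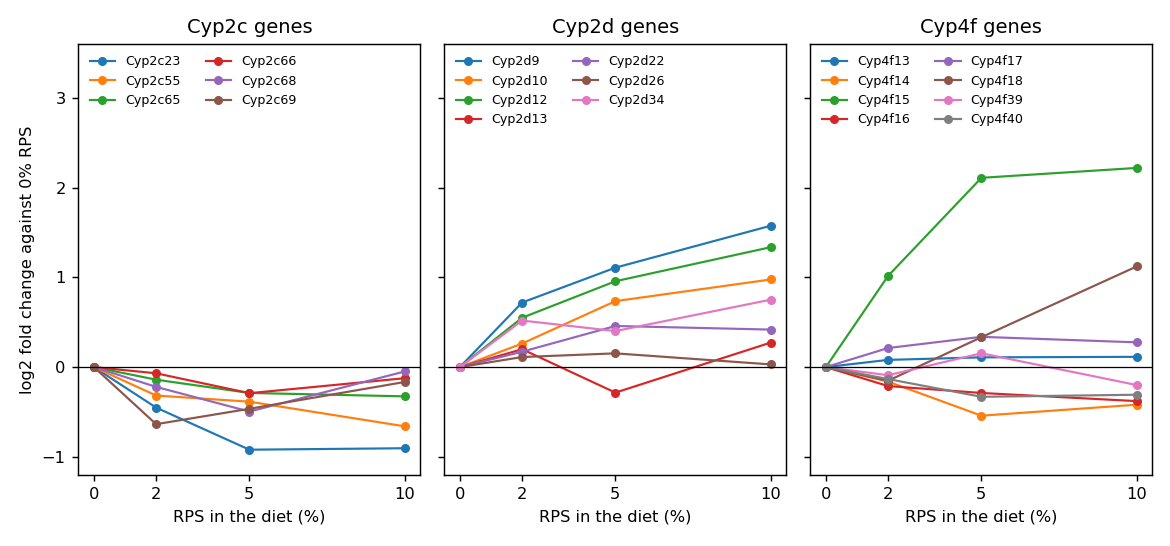
log2 fold change against 0% RPS (vertical axis) of the tested Cyp2c, Cyp2d, and Cyp4f genes with 2, 5, and 10% RPS (horizontal axis), 1 line per gene, with the 0% diet set to 0. Cyp4f15 reaches 2.11 with 5% RPS and 2.22 with 10% RPS, and Cyp2c55 falls to -0.66.

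The linear trend with dose was past an adjusted p of 0.05 for 4 of 39 members, beside 1.11% of all tested genes, and 15 had an unadjusted p under 0.05, beside 18.8%. The slope per percent of RPS on the log2 scale was -0.060 for Cyp2c55 (SE 0.010, adjusted p = 0.0208 by edgeR), 0.14 for Cyp2d9 (SE 0.031, adjusted p = 0.0364), 0.12 for Cyp2d12 (SE 0.026, adjusted p = 0.0333), and 0.21 for Cyp4f15 (SE 0.050, adjusted p = 0.0488). DESeq2's Wald test called 11 of the 34 members with an adjusted p, beside 4.84% of all such genes. The count by edgeR was 0 without mouse 4 on 0% RPS or mouse 1 or 3 on 10% RPS, 1 without mouse 1, 3, or 5 on 0% RPS, and 2 without mouse 1 on 2% RPS or mouse 2 on 10% RPS. It rose to 7 without mouse 3 on 2% RPS, and leaving out mouse 4 on 10% RPS gave 8. Over all tested genes the share called was 0 to 0.0906% in the fits with 0 or 1 member, 0.433 and 0.888% in those with 2, and 4.37 and 3.64% in those with 7 and 8.

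The genes that serve the P450s were examined in 6 lists. Beside their counts with 10% RPS stand 1.04% of all tested genes past the threshold and 19.5% at an unadjusted p under 0.05. Of 11 redox partners, 0 passed the threshold with 10% RPS by edgeR, and 1 had an unadjusted p under 0.05. This was Por, the reductase that feeds electrons to all members, with 276 ± 50.6 CPM with 0% RPS and 198 ± 20.6 CPM with 10% RPS (SD, n = 5), a log2 fold change of -0.48 (SE 0.13), and an adjusted p of 0.0586 by edgeR. Cyb5b, an electron donor of the outer mitochondrial membrane, had a log2 fold change of 0.098 (SE 0.090). Of 17 tested xenobiotic and lipid receptors, 0 passed the threshold, while 7 were at an unadjusted p under 0.05. Those with lower estimates were Pparg (-0.41, SE 0.11), Nr1h3 (-0.39, SE 0.12), Nr1h4 (-0.34, SE 0.096), Nr1i2 (-0.25, SE 0.074), and Hnf4a (-0.22, SE 0.077), and those with higher estimates were Nr1i3 (0.73, SE 0.30) and Hnf4g (0.40, SE 0.18). Pparg, with 155 CPM with 0% RPS and 117 CPM with 10% RPS, had an adjusted p of 0.0507 by edgeR and passed the trend. Ahr, named for its role after its values were seen, had a log2 fold change of -0.088 (SE 0.16). With 10% RPS 0 of 6 tested genes of the Ahr battery had an unadjusted p under 0.05. In the trend with dose Ahrr and Tiparp were lower at this level, beside 18.8% of all tested genes.

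Of 4 epoxide hydrolases, which open the epoxides that Cyp2c and Cyp2j enzymes make, 0 passed the threshold and 0 were at an unadjusted p under 0.05. Of 12 genes of heme synthesis and breakdown, 1 passed the threshold and 4 were at an unadjusted p under 0.05, all lower. The shares over all tested genes were 1.04% and 19.5%. Hmox1, which degrades heme, was called with 6.58 ± 1.34 CPM with 0% RPS and 3.57 ± 0.258 CPM with 10% RPS (log2 fold change -0.88, SE 0.20, adjusted p = 0.0289 by edgeR). Alas1, the first enzyme of heme synthesis, had a log2 fold change of -0.29 (SE 0.12), and Hmox2, the constitutive heme oxygenase, had -0.57 (SE 0.23). Of 11 tested P450 genes of the families from 5 upward, 0 passed the threshold, and Cyp24a1, the vitamin D catabolizing P450, was the 1 with an unadjusted p under 0.05 (log2 fold change -2.97, SE 1.16, adjusted p = 0.178 by edgeR).

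Markers of other cell types moved with the diet in part. Beside the counts of markers stand 19.5% of all tested genes at an unadjusted p under 0.05 and 1.04% past the threshold. Of 9 smooth muscle markers, 9 had higher estimates with 10% RPS, 7 had an unadjusted p under 0.05, and Actg2 and Synm passed the threshold. Their summed level was 3017 to 6881 CPM with 0% RPS and 4924 to 8152 CPM with 10% RPS, with none of the 9 at 0 in any mouse. Cyp4f15 was lowest on 10% RPS in mice 4 and 5, which also had the lowest smooth muscle sums of that diet, 4924 and 5685 CPM. On 0% RPS this did not hold, since mouse 5 had the highest sum (6881 CPM) with Cyp4f15 at 2.38 CPM, and mouse 4 had the highest Cyp4f15 (4.16 CPM) with a sum of 3406 CPM. On 5% RPS mouse 1 was lowest for both (5087 and 4.30 CPM), and on 2% RPS mouse 5 was highest for both (7030 and 8.05 CPM). With the mean log2 level of these markers as a covariate, a setting added after the data had been seen, 0 of the 39 members and 0% of all tested genes passed the threshold by edgeR. Beside the values of Cyp2c55 and Cyp4f15 given above, Cyp2d9 then had a log2 fold change of 1.80 (adjusted p = 0.160 by edgeR), Cyp2d12 of 1.32 (0.161), and Cyp2d34 of 1.004 (0.155). The estimate of Cyp4f15 was thus less than it was without the covariate, and that of Cyp2d34 was more.

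Goblet cell markers had lower estimates in 9 of 10, of which 6 had an unadjusted p under 0.05 and Zg16 passed the threshold. Over all tested genes these shares were 19.5% and 1.04%. The goblet sums were 9286 to 12560 CPM with 0% RPS and 7372 to 8993 CPM with 10% RPS. Epithelial markers had lower estimates in 8 of 8, with 4 at an unadjusted p under 0.05 and 0 past the threshold, and sums of 9736 to 13650 and 8941 to 11620 CPM. Absorptive colonocyte markers were mixed, with Slc26a3 and Saa1 called higher, 5 lower at an unadjusted p under 0.05, and sums of 38760 to 44600 and 27370 to 43730 CPM. In the lists of fibroblast, endothelial, enteroendocrine, tuft, crypt, T cell, macrophage, and pancreatic acinar markers 0 genes passed the threshold. At an unadjusted p under 0.05, 4 of 7 endothelial markers were lower, and 3 of 7 fibroblast markers were higher and 1 (Pdgfra) lower. The enteroendocrine, tuft, and crypt lists each had 1 marker higher at this level (Tph1, Alox5ap, and Mki67), and the others had 0. The part of these cells in the lower levels of Cyp2c55 and other members was not tested.

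Adipocyte markers varied between mice within each diet. Their sum was 171 to 481 CPM with 0% RPS and 126 to 440 CPM with 10% RPS, and 8 of 9 had lower estimates. Past the threshold were 0, beside 1.04% of all tested genes, and 1 was at an unadjusted p under 0.05, beside 19.5%. Adipoq was at 0 in 2 of 20 mice, Lep in 4, Retn in 3, Cfd in 2, and Plin1 in 1. With the mean log2 level of these markers as a covariate, also added after the data had been seen, the log2 fold change of Cyp2e1 moved from -0.55 (SE 1.18) to 0.57 (SE 0.36), and Cyp2c55 was the 1 member called, beside 0.0977% of all tested genes. The other 4 log2 fold changes stayed near their values without the covariate, at 1.63 for Cyp2d9 (adjusted p = 0.0719 by edgeR), 1.37 for Cyp2d12 (0.0724), 0.79 for Cyp2d34 (0.0866), and 2.16 for Cyp4f15 (0.0761).

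**Figure D5:**
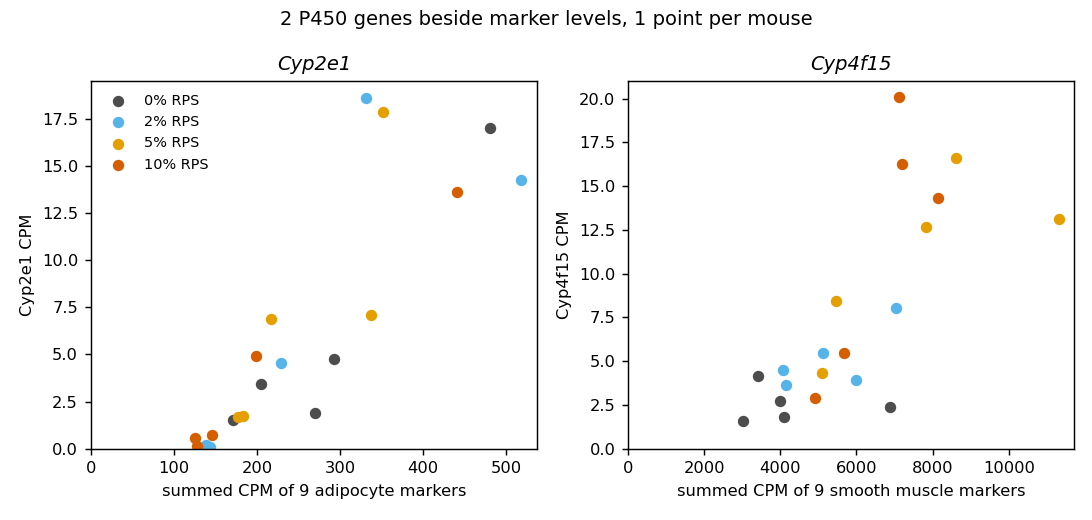
CPM of Cyp2e1 against the summed CPM of 9 adipocyte markers (left) and CPM of Cyp4f15 against that of 9 smooth muscle markers (right), 1 point per mouse, colored by diet. The mice with the highest Cyp2e1 on 0% and 10% RPS, at 17.0 and 13.6 CPM, also had the highest adipocyte sums of their diets, while on 2% RPS Cyp2e1 was highest in mouse 5 (18.6 CPM, sum 332 CPM) and the sum in mouse 4 (518 CPM).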

How the data were processed

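RNA from the cecum of 20 mice was sequenced as stranded single-end mRNA libraries. Per the study's methods, the authors trimmed bases of low quality, discarded reads with several undetermined bases, and mapped the rest to GRCm39 with counting per gene in CLC Genomics Workbench. The deposited table holds these raw counts, 1 column per mouse. The annotation release, the strand setting, and the treatment of multi-mapping reads are not given in the sources used here.

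Gene IDs, coordinates, and exon lengths were taken from GENCODE (GRCm39), and promoters and transcripts were read from that genome. The P450 members and all gene lists were chosen with earlier results of these data known. Genes were kept by edgeR's filterByExpr (minimum count 10, minimum total 15), which left 15348. Counts were scaled by TMM and fitted with edgeR's robust quasi-likelihood model with 4 diets over all 20 mice, and p-values were adjusted over all tested genes by Benjamini-Hochberg. The threshold was an adjusted p of at most 0.05 and a fold change of at least 1.5, and for the trend over the RPS percentage the adjusted p alone. CPM are counts scaled to a common library size with TMM factors, and log2 CPM used a prior count of 2. Versions were edgeR 4.0.16, limma 3.58.1, DESeq2 1.42.0, sva 3.50.0, and R 4.3.3. The floor of detection was set at 3 counts in a library and covers counting error only. The scripts were tested on simulated data.

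The value of each mouse on all 4 diets was given for members past the threshold in any comparison or the trend, and of each mouse on 0 and 10% RPS for those with an unadjusted p under 0.05 with 10% RPS, the member with the highest level per length of each subfamily, and those nearest the threshold. From the lists, genes past the threshold, those with an unadjusted p under 0.05, and the 2 most abundant could be named. As alternatives, the fit was repeated with DESeq2's Wald test, the size factors of DESeq2, other filters on low counts, leaving out immunoglobulin genes, no robust step, 1 surrogate variable, only the 2 diets compared, glmTreat, no fold threshold, the rank of the dose, and leaving out each mouse. Marker levels as covariates were chosen after seeing the data. The values of 1 listed gene are not reported here.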

Additional observations from a re-analysis of the deposited data

Results flagged for a closer look

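Within a diet of 5 mice, a single mouse stood apart from the other 4 for 7 of 116 combinations of 29 members and 4 diets (gap over range above 0.71, Dixon's 95% value), where chance gives about 1 in 20. Mouse 2 on 10% RPS accounted for 3 of them. It was the highest for Cyp2d9, at 9.53 CPM against 2.93 to 3.63 CPM in the others, and for Cyp2d10, at 10.1 CPM against 4.90 to 5.72 CPM, and it was the lowest for Cyp4f18, at 1.34 CPM against 5.37 to 7.44 CPM. On 2% RPS, mouse 2 was the highest for Cyp1a1 at 3.58 CPM (the others 0.749 to 0.876 CPM), and mouse 4 was the highest for Cyp2c55 at 5132 CPM (the others 3943 to 4249 CPM). On 5% RPS, mouse 1 was the lowest for Cyp2t4 at 0.274 CPM (the others 0.692 to 0.801 CPM), and mouse 4 was the lowest for Cyp4x1 at 0.220 CPM (the others 0.374 to 0.444 CPM).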

How the results depend on the processing

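The 5 members called with 10% RPS became 2 (Cyp2c55 and Cyp2d12) with only the 2 diets in the fit, 0 by glmTreat against a 1.5-fold change, 0 with the smooth muscle covariate, and 1 (Cyp2c55) with the adipocyte covariate, and leaving out each mouse gave 1 to 6. The share of all tested genes called in these fits was 0.658, 0, 0, and 0.0977%, and 0.0907 to 2.23% leaving out each mouse, against 1.04%. With 5% RPS the count of 0 by edgeR became 3 by DESeq2's Wald test, 1 without the robust step, 1 with only the 2 diets, and 1 with no fold threshold (0 to 2 leaving out each mouse), beside 1.41, 0.274, 0.436, and 0.254% of all genes (0 to 0.739%). The 4 members of the trend became 11 by DESeq2's Wald test, 10 with the rank of the dose, 0 with the smooth muscle covariate, and 1 with the adipocyte covariate (0 to 8 leaving out each mouse), beside 4.84, 3.51, 0, and 0.0391% of all genes (0 to 4.37%). With 2% RPS and between 10 and 5% RPS the count was 0 in all 32 alternatives. Cyp2d34 also missed the threshold with no filter on low counts (adjusted p = 0.0518), with 1 surrogate variable (0.0580), and with only the 2 diets (0.0713, edgeR). In 14 of 39 members the log2 fold change with 10% RPS changed sign under at least 1 alternative, none of them called. Leaving out each mouse gave -0.053 to 0.12 for Cyp2d26, -1.80 to 0.44 for Cyp2e1, -0.17 to 0.15 for Cyp2r1, -0.085 to 0.19 for Cyp2s1, -0.24 to 0.057 for Cyp2u1, -0.11 to 0.035 for Cyp4b1, -0.24 to 0.034 for Cyp2c66, -0.13 to 0.18 for Cyp2c68, -0.42 to 0.062 for Cyp2c69, -0.23 to 0.022 for Cyp2j9, and -0.46 to 0.12 for Cyp4f39. The smooth muscle covariate, which also turned Cyp2c66, Cyp2c68, and Cyp4f39, gave 0.016 for Cyp2r1, -0.13 for Cyp2s1, and 0.14 for Cyp3a13, and the adipocyte covariate gave 0.57 for Cyp2e1, 0.14 for Cyp2r1, -0.063 for Cyp2s1, -0.035 for Cyp2w1, and 0.073 for Cyp4x1. The cause of these changes was not tested. For the 29 members whose values in each mouse are given, 281 of 310 values under 11 settings kept their direction and side of the threshold. Leaving out each mouse, 534 of 580 did so. The other tested members, of which 5 changed sign, are not in these tallies. No paired analysis was possible because no mouse number is shared by 2 diets. Members near the floor of 3 counts, such as Cyp1b1, are limited by depth.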
